A study of Mus musculus with 8 samples.

Results

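The alcohol, aldehyde and retinol dehydrogenase families were described here in the livers of mice that lacked miR-33 in hepatocytes. A gene was taken as a member when its symbol began with Adh, Aldh, Akr, Rdh or Dhrs followed by a digit, with Akr1d1 and Aldh7a1 left out. This name rule used no measured value, but it was set with earlier results of these data known. It gave 62 of the 17810 genes in the deposited table, namely 7 Adh, 18 Aldh, 15 Akr, 13 Rdh and 9 Dhrs genes. Of these, 59 were annotated as protein coding, Adh6-ps1 and Rdh18-ps as transcribed pseudogenes, and Dhrs13os as an antisense RNA.

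RNA-Seq was performed on whole liver from 4 WT and 4 HKO male mice, described as littermates, at 5 months of age. Which of these mice shared a litter is not given in the sources used here, so litter was not taken into account. HKO mice carried a floxed miR-33 allele (miR-33 loxP/loxP) and a Cre transgene under the albumin promoter, meant to delete miR-33 in hepatocytes; how far it acted in other liver cells was not measured here. Whether WT mice carried the floxed allele without Cre is not given in the sources used here. All 8 mice had chow until 8 weeks of age and then CD-HFD, a diet high in fat and lacking added choline, for 3 months, so no group on chow was compared. The comparison asks how the absence of miR-33 in hepatocytes changed liver gene expression during diet-induced steatosis.

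These enzymes move a hydride between a carbonyl group and a nicotinamide cofactor. Alcohol dehydrogenases (Adh) and retinol dehydrogenases (Rdh, with the related Dhrs proteins) interconvert alcohols such as ethanol, retinol and hydroxysteroids with aldehydes or ketones, and aldo-keto reductases (Akr) mostly run in the reducing direction. Aldehyde dehydrogenases (Aldh) then carry aldehydes on to acids, as in the oxidation of acetaldehyde to acetate, of retinaldehyde to retinoic acid and of fatty aldehydes to fatty acids, and the liver holds many of these enzymes at high levels.

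The deposited values were estimated gene counts, summing to 12174339 to 18319736 per WT liver and 12509201 to 18735785 per HKO liver, and the 62 members together accounted for 1.42 to 1.5% of a WT library and 1.13 to 1.34% of an HKO library. Levels are given as CPM, the counts of a gene per 1000000 counts of its library, on library sizes scaled by TMM, and differences as the log2 fold change of HKO minus WT with its standard error (SE) and an adjusted p from the quasi-likelihood test of edgeR, corrected over the 12395 genes tested. A gene was called when this adjusted p was under 0.05. The table has 0 rows for miR-33 itself, so its loss could not be read from these libraries. Its host gene Srebf2 had 12.6 to 20.9 CPM in WT and 10.6 to 14.4 CPM in HKO livers (adjusted p = 0.243), whereas Abca1, a cholesterol transporter repressed by miR-33, rose from 298 ± 18.6 to 411 ± 47.6 CPM (SD, n = 4; log2 fold change 0.47, SE 0.0940, adjusted p = 0.0175). HKO replicate 3 differed most from the other livers of its genotype. Hepatocyte markers summed to 77936 to 131208 CPM over the 8 livers, with 5 of 8 markers called higher in HKO, and stellate cell markers to 384 to 556 CPM in WT and 315 to 427 CPM in HKO livers, with 2 of 9 called lower (Col1a1 and Col3a1). Markers of macrophages, endothelial cells and cholangiocytes gave 0 calls, although the cholangiocyte sum was 111 CPM in HKO replicate 2 against 30.9 to 53.3 CPM in the other 7 livers. In whole liver, fewer cells of a type and less RNA per cell cannot be told apart.

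The mature miR-33 sequence is shown because it was the RNA removed from hepatocytes, with its seed (bases 2 to 8) in capitals. It is taken from RefSeq for the GRCm38.p6 build, at chr15:82198127-82198147 on the plus strand, and is written 5′ to 3′.
mmu-miR-33-5p: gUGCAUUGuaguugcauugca

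A seed match was taken as CAATGCA, the complement of the seed, or AATGCAA, the complement of bases 2 to 7 followed by A, on the transcript strand of the longest 3′ untranslated region that GENCODE M21 gives a gene, and the pair of letter strings overlap where the match is 8 bases long. Such a match was found in 6 of the 46 tested members with an annotated region (13%), beside 1872 of 11529 tested genes (16.2%). Those members were Aldh2 with 2 matches, and Aldh3a2, Aldh1a7, Aldh6a1, Rdh11 and Dhrs9 with 1 each. The matches of Aldh3a2 and Aldh1a7 are printed because these were the members called between the genotypes that held one, with the 7 matched bases in capitals (an A after them makes the match of Aldh3a2 8 bases long), from GRCm38 at chr11:61245480-61245506 and chr19:20692970-20692996, both on the minus strand. A match is a description of the letters and not a site of binding.
Aldh3a2: tctcctagcaCAATGCAaggaaatttt
Aldh1a7: ctgtaattcgAATGCAAagcttaataa

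Of the 62 members, 48 passed the filter on low counts and were tested, and 9 of these were called, 1 higher and 8 lower in HKO livers. Over all genes tested, 5.03% were called, 1.66% higher and 3.37% lower. Read without the adjustment, 16 of the 48 members had p under 0.05, against 19.8% of all genes. The livers of the genotypes did not overlap for 11 of the 48 members, 1 with HKO above WT and 10 with HKO below WT, where 12.6% of all genes did not overlap, 5.32% with HKO above and 7.24% with HKO below. The median log2 fold change was -0.08 over the tested members and 0.01 over all genes, with 21 members above and 27 below 0. The calls were unequal between families, with 4 of 13 tested Aldh genes, 3 of 8 Dhrs genes and 1 of 11 Akr genes called lower, 1 of 5 Adh genes called higher, and 0 of 11 Rdh genes called, with 2 Rdh genes at an unadjusted p under 0.05. DESeq2 and limma-voom also called 0 Rdh genes.

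**Figure D1:**
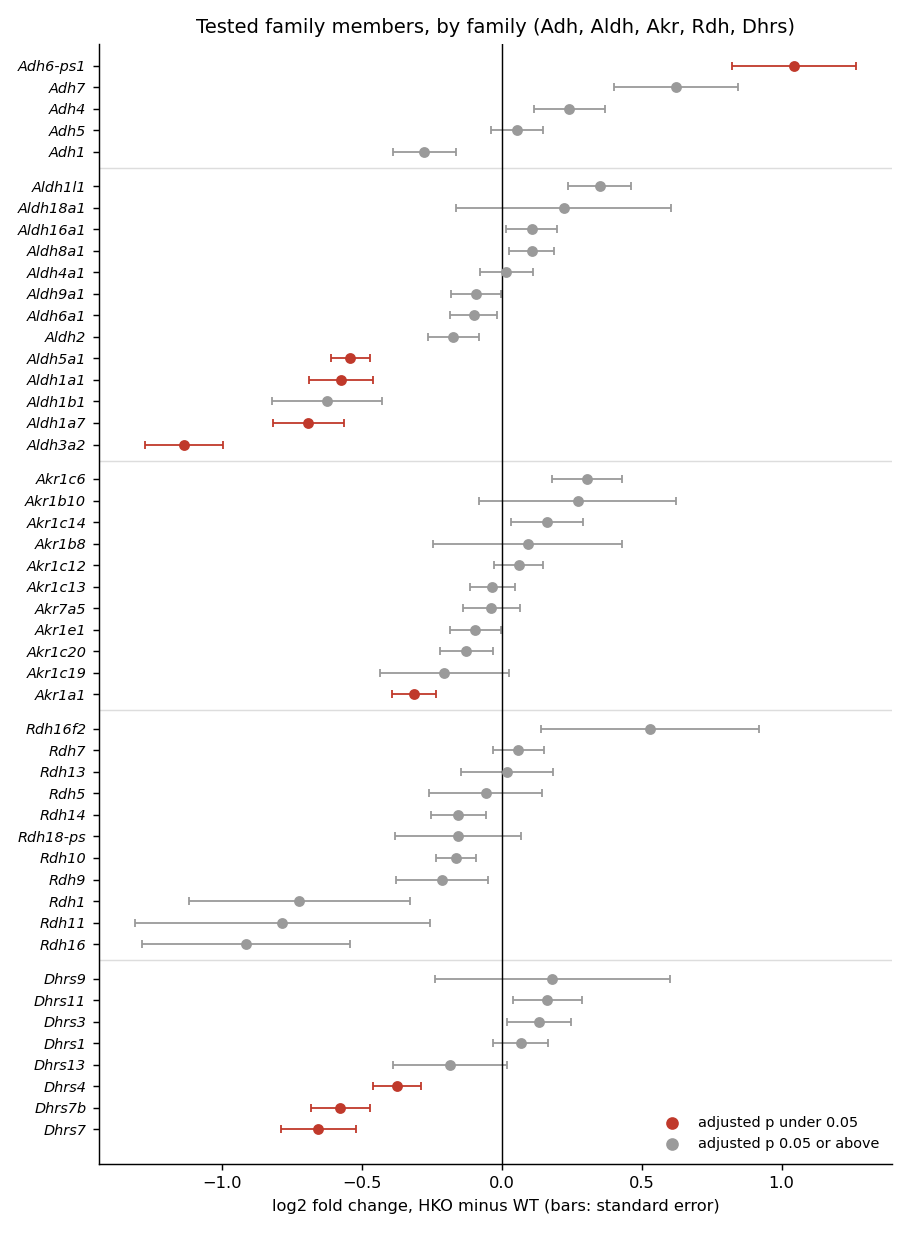
Log2 fold change of HKO minus WT for the 48 tested members, grouped by family and ordered within it, with bars for the standard error and red points for an adjusted p under 0.05. The 8 members called lower belong to the Aldh, Akr and Dhrs families and reach from -1.14 for Aldh3a2 to -0.31 for Akr1a1, and the member called higher is Adh6-ps1 at 1.04.

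Among the aldehyde dehydrogenases, Aldh3a2 fell furthest. Aldh3a2 encodes fatty aldehyde dehydrogenase, which oxidizes long-chain fatty aldehydes to fatty acids, and lies on chromosome 11 from 61223417 to 61267529 on the minus strand. It measured 832, 1076, 879 and 896 CPM in the WT livers and 491, 447, 309 and 428 CPM in the HKO livers. Every HKO liver was below every WT liver, with HKO replicate 3 lowest. The mean fell from 921 ± 107 to 419 ± 77.6 CPM (SD, n = 4), to 45.5% of the WT level on the fitted scale (log2 fold change -1.14, SE 0.138, edgeR adjusted p = 0.00154), and was -1.02 without HKO replicate 3 (adjusted p = 0.00111). This gene holds the 8-base seed match printed above, in the longest of its annotated 3′ untranslated regions. Whether the livers used that region, and any part of miR-33 in the level of this gene, was not tested.

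The 120 bases around a RefSeq start of Aldh3a2, from 100 bases before it to 20 after, are printed because the gene changed most among the members. This start lies inside the gene span given above and not at its outer end. The stretch is chr11:61267167-61267286 on the minus strand of GRCm38.p6, with an E-box (CACGTG) and a CCAAT box in capitals. Promoter windows of 300 bases were given for 51 members, 58 windows in all, and on either strand CACGTG was in 6 of these (10.3%) and in 7.15% of 32851 mouse promoters, CCAAT in 31 (53.4%) and in 37.4%, and AGGTCA, the half-site of nuclear receptors, in 14 (24.1%) and in 16.3%. Of the 8 called members with a window, Aldh3a2 held CACGTG, Aldh1a1, Aldh1a7, Aldh3a2, Aldh5a1 and Dhrs7b held CCAAT, and none held AGGTCA. A match says only that the letters are in the window.
Aldh3a2 start: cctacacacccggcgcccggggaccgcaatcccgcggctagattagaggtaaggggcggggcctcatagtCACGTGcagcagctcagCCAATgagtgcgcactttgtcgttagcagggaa

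Aldh5a1 encodes succinic semialdehyde dehydrogenase, the mitochondrial enzyme that closes the breakdown of GABA, and lies on chromosome 13 from 24907579 to 24937662. Its levels were 117, 115, 109 and 109 CPM in WT livers and 73.2, 81.7, 76.8 and 77.8 CPM in HKO livers. The spread within each genotype was small, and the lowest WT liver stood well above the highest HKO liver. The mean fell from 113 ± 3.99 to 77.4 ± 3.52 CPM (SD, n = 4; log2 fold change -0.54, SE 0.0699, edgeR adjusted p = 0.00202). Its reads cannot be told apart from those of 2 antisense genes that overlap it, if the counting did not use strand.

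Aldh1a1 and its neighbour Aldh1a7 fell together. Aldh1a1, on chromosome 19 from 20492583 to 20643464 on the plus strand, encodes the main retinaldehyde dehydrogenase of adult liver, and Aldh1a7, from 20692953 to 20727557 on the minus strand, encodes a close relative. Aldh1a1 measured 2555, 2636, 2444 and 2975 CPM in WT livers and 1827, 2097, 1628 and 1571 CPM in HKO livers. Aldh1a7 measured 438, 358, 306 and 351 CPM in WT livers and 259, 229, 228 and 183 CPM in HKO livers. In both genes every HKO liver was below every WT liver, with HKO replicate 4 lowest.

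The mean of Aldh1a1 fell from 2653 ± 229 to 1781 ± 238 CPM (SD, n = 4; log2 fold change -0.57, SE 0.114, edgeR adjusted p = 0.0165). This call was lost without WT replicate 2 (edgeR adjusted p = 0.0578) and without HKO replicate 4 (edgeR adjusted p = 0.0505). The mean of Aldh1a7 fell from 363 ± 54.9 to 225 ± 31.3 CPM (SD, n = 4; log2 fold change -0.69, SE 0.126, edgeR adjusted p = 0.0113). Both genes had fractional counts in most livers, as arise where a read fits several genes, so the split between the pair is uncertain. Aldh1a1 also overlaps E030003E18Rik on the same strand and C730002L08Rik on the opposite strand, and how many reads they share was not tested. In the sum of Aldh1a1 and Aldh1a7, chosen after seeing the data, sharing between the pair cancels. This sum was 2750 to 3326 CPM in WT and 1754 to 2326 CPM in HKO livers and also fell (log2 fold change -0.59, SE 0.112, edgeR adjusted p = 0.0139).

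The sequences around the starts of this pair are printed because the genes moved together and their starts are alike. Both run from 100 bases before to 20 after the RefSeq start on GRCm38.p6, chr19:20601868-20601987 on the plus strand for the downstream start of Aldh1a1 and chr19:20727537-20727656 on the minus strand for Aldh1a7, with the bases identical in the alignment in capitals. The stretches share 112 of 120 bases (93.3%), against 70 of 120 (58.3%) between Aldh1a7 and the upstream start of Aldh1a1.
Aldh1a1 start: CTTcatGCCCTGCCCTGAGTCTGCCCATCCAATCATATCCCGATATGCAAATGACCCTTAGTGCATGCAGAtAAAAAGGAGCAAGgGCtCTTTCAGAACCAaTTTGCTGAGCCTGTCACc
Aldh1a7 start: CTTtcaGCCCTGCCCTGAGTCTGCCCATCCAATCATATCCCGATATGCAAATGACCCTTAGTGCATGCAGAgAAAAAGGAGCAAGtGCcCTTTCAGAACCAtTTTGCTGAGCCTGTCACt

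The other 2 Aldh1a genes, which also encode retinaldehyde dehydrogenases, were scarce and were not tested. They had at most 0.525 CPM in any liver for Aldh1a2 and 0.657 CPM for Aldh1a3. Aldh2, the mitochondrial enzyme that clears acetaldehyde, had 1396 ± 109 CPM in WT livers and 1237 ± 69.6 CPM in HKO livers (SD, n = 4; log2 fold change -0.17, edgeR adjusted p = 0.326). Aldh1b1, a second mitochondrial acetaldehyde dehydrogenase, had 43.9 to 64.1 CPM in WT and 27.4 to 48.1 CPM in HKO livers (log2 fold change -0.63, SE 0.197, edgeR adjusted p = 0.114). HKO replicate 4 lay inside the WT range, and without it Aldh1b1 passed the threshold (log2 fold change -0.80, edgeR adjusted p = 0.0313), as it did in DESeq2 with all livers (adjusted p = 0.0202).

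Aldh1l1, the cytosolic formyltetrahydrofolate dehydrogenase of one-carbon metabolism, pointed the other way, with 420 to 486 CPM in WT and 458 to 655 CPM in HKO livers (log2 fold change 0.35, SE 0.114, edgeR adjusted p = 0.109). HKO replicate 3 was the HKO liver inside the WT range, and without it Aldh1l1 passed the threshold (log2 fold change 0.45, edgeR adjusted p = 0.0193), as in DESeq2 with all livers (adjusted p = 0.0468). The remaining 6 tested Aldh genes were not called and lay between -0.10 for Aldh6a1, of valine breakdown, and 0.22 for Aldh18a1, of proline synthesis, on the log2 scale. Aldh18a1 was low, with at most 1.001 CPM in any liver. Aldh4a1, of proline breakdown, was at 0.02, Aldh9a1, of carnitine synthesis, at -0.09, and Aldh8a1 and Aldh16a1 both at 0.11. Aldh1l2, Aldh3b1 and Aldh3b3 were not tested, with at most 1.60 CPM in any liver. Aldh1l2, the mitochondrial counterpart of Aldh1l1, had 0.496 to 1.18 CPM in WT and 0.281 to 0.462 CPM in HKO livers, without overlap.

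All 3 called Dhrs genes were lower in HKO livers. Dhrs4 encodes a peroxisomal reductase of retinaldehyde and other carbonyls, and lies on chromosome 14 from 55478758 to 55490341. It measured 111, 136, 118 and 126 CPM in WT livers and 87.6, 102, 99.5 and 90.1 CPM in HKO livers. The genotypes did not overlap, although the gap between the lowest WT and the highest HKO liver was smaller than the range of values within either. The mean fell from 123 ± 10.6 to 94.8 ± 7.08 CPM (SD, n = 4; log2 fold change -0.37, SE 0.0862, edgeR adjusted p = 0.0306). The call was lost without any of WT replicates 2 or 4 or HKO replicates 1 or 4 (edgeR adjusted p = 0.119, 0.0609, 0.0667 and 0.0881).

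Dhrs7 encodes a reductase of the endoplasmic reticulum that acts on steroids and retinoids, and lies on chromosome 12 from 72650353 to 72664829. Its levels were 43.6, 39.6, 33.5 and 36.5 CPM in WT livers and 22.7, 30.04, 19.4 and 25.1 CPM in HKO livers. WT replicate 3, the lowest WT liver, remained above HKO replicate 2, the highest HKO liver. The mean fell from 38.3 ± 4.33 to 24.3 ± 4.47 CPM (SD, n = 4; log2 fold change -0.66, SE 0.133, edgeR adjusted p = 0.0176). It was not called without WT replicate 1 (edgeR adjusted p = 0.0602) or WT replicate 2 (edgeR adjusted p = 0.0650).

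Dhrs7b encodes a peroxisomal reductase of ether lipid synthesis, and lies on chromosome 11 from 60830631 to 60858424. It had 13.6, 15.3, 13.9 and 13.7 CPM in WT livers and 10.2, 9.17, 8.61 and 9.87 CPM in HKO livers. WT replicate 2 stood above the other WT livers, and the highest HKO liver was below all of them. The mean fell from 14.1 ± 0.786 to 9.46 ± 0.705 CPM (SD, n = 4; log2 fold change -0.58, SE 0.106, edgeR adjusted p = 0.0119). Without WT replicate 2 the log2 fold change was -0.53 and the call was lost (edgeR adjusted p = 0.0545).

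The other Dhrs genes were not called. Dhrs3, which reduces retinaldehyde back to retinol, had 93.4 ± 11.2 CPM in WT livers and 102 ± 14.3 CPM in HKO livers (SD, n = 4; log2 fold change 0.13, edgeR adjusted p = 0.574). Dhrs9 was below 1.2 CPM in every liver (at most 1.11 CPM), and Dhrs1, Dhrs11 and Dhrs13 lay between -0.18 and 0.16 on the log2 scale. Dhrs13os, which overlaps Dhrs13 on the other strand, had at most 0.539 CPM and was not tested.

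**Figure D2:**
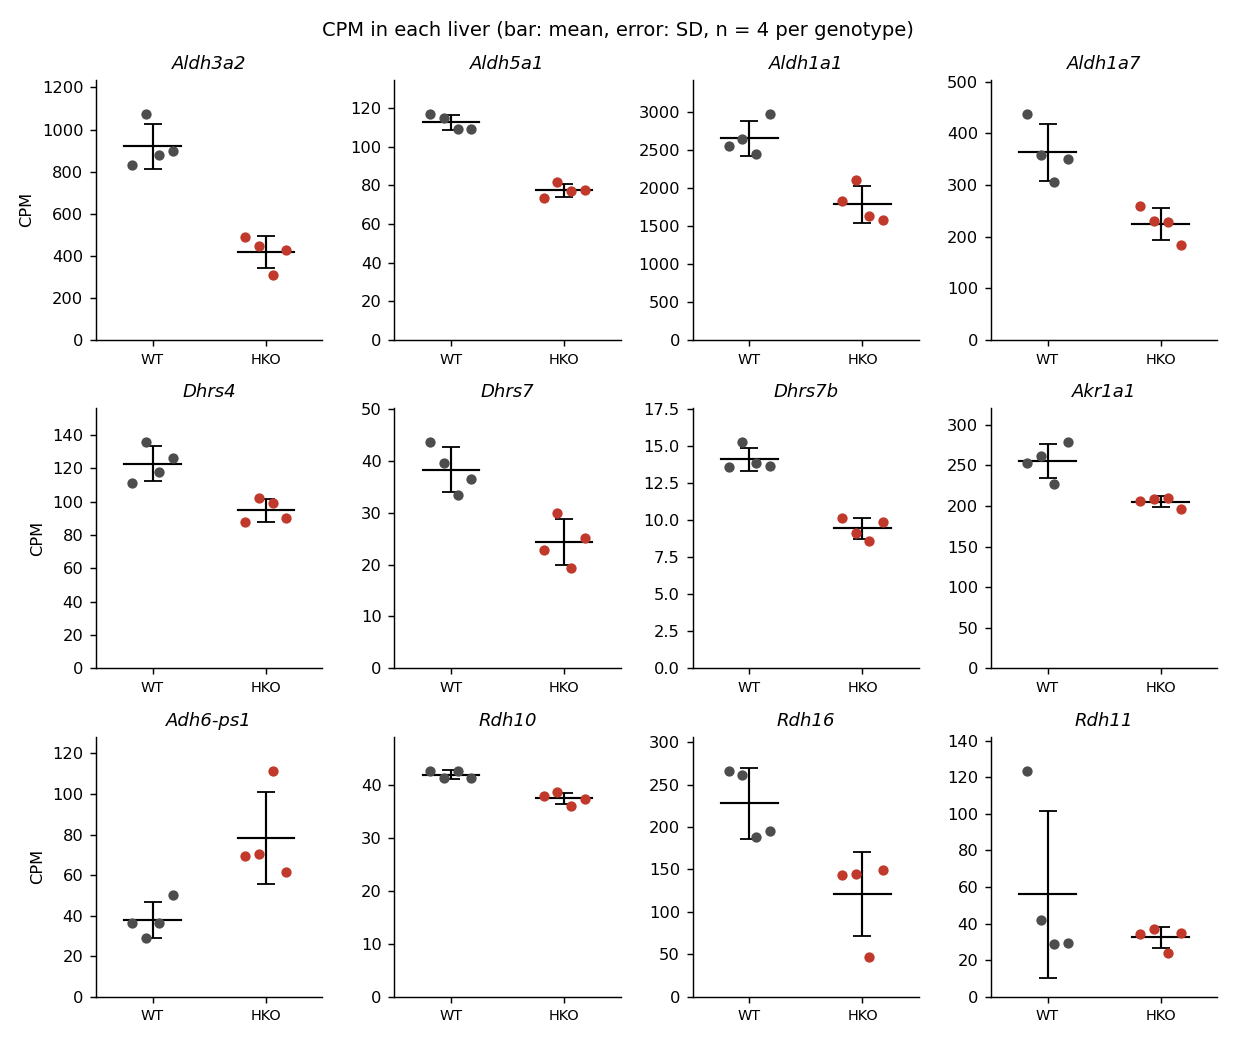
CPM in each of the 4 WT (grey) and 4 HKO (red) livers for the 9 called members and for Rdh10, Rdh16 and Rdh11, with the mean as a horizontal line and the SD as the error bar; each axis starts at 0. Genotypes do not overlap in the first 11 panels, and single livers stand apart in Rdh16 (HKO replicate 3 at 46.3 CPM) and Rdh11 (WT replicate 1 at 124 CPM).

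Akr1a1 was the called member of the aldo-keto reductases. It encodes aldehyde reductase, which in mice reduces glucuronate on the way to ascorbate, and lies on chromosome 4 from 116636510 to 116651675. It measured 253, 262, 227 and 279 CPM in WT livers and 207, 209, 210 and 196 CPM in HKO livers. The HKO livers lay close together, below a wider range of WT values. The mean fell from 255 ± 21.4 to 205 ± 6.52 CPM (SD, n = 4; log2 fold change -0.31, SE 0.0795, edgeR adjusted p = 0.0447). This adjusted p was next to the threshold, and the call was lost without any of WT replicates 1, 2 and 4 or of the 4 HKO livers in turn (edgeR adjusted p between 0.0750 and 0.139).

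Akr1c6, a hydroxysteroid dehydrogenase on chromosome 13, had the highest level per kilobase of exon over the 8 livers together, although in WT livers alone the mean of Adh1 was higher (589 against 582 CPM per kilobase). Its levels were 1188, 1079, 1019 and 1447 CPM in WT livers and 1277, 1390, 1632 and 1543 CPM in HKO livers. WT replicate 4 lay above the lower pair of HKO livers, so the genotypes overlapped. The mean was 1183 ± 189 CPM in WT livers and 1461 ± 158 CPM in HKO livers (SD, n = 4; log2 fold change 0.30, SE 0.124, edgeR adjusted p = 0.199). None of the 6 tested genes of the Akr1c cluster was called, with a median log2 fold change of 0.01, 3 above and 3 below 0, and 1 at an unadjusted p under 0.05. DESeq2 called none of them either.

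Akr1c14, which reduces dihydrotestosterone and other ketosteroids, had 750 ± 115 CPM in WT livers and 838 ± 107.5 CPM in HKO livers (SD, n = 4; log2 fold change 0.16, edgeR adjusted p = 0.546). Akr1c12 and Akr1c13, which lie on either side of Akr1c19 and had fractional counts in most livers, summed to 148 to 175 CPM in WT and 151 to 170 CPM in HKO livers (log2 fold change 0.01). Akr1c19 and Akr1c20 were at -0.21 and -0.13, and Akr1c19 was 21.4 CPM in HKO replicate 3 against 43.2 to 49.2 CPM in the other HKO livers. Akr1e1, beside Akr1c21 at the end of the cluster, was at -0.09, and Akr7a5, on chromosome 4, at -0.04. Akr1b3, the aldose reductase that turns glucose to sorbitol, had at most 1.97 CPM and was not tested, and the tested Akr1b genes, Akr1b8 and Akr1b10, were at 0.09 and 0.27 with 2.43 CPM or less in every liver. Akr1b7, Akr1c18 and Akr1c21 were not tested, with at most 2.77 CPM in any liver.

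The Adh genes form a cluster on chromosome 3, and the call in it was the pseudogene. Adh6-ps1, at 138374121 to 138388292, measured 36.5, 28.8, 36.4 and 50.1 CPM in WT livers and 69.6, 70.2, 112 and 61.5 CPM in HKO livers. The lowest HKO liver lay above the highest WT liver, and HKO replicate 3 was highest. The mean rose from 37.9 ± 8.87 to 78.2 ± 22.6 CPM (SD, n = 4; log2 fold change 1.04, SE 0.223, edgeR adjusted p = 0.0356), and by 0.82 on the log2 scale without HKO replicate 3 (edgeR adjusted p = 0.0218). The call was lost without WT replicates 1, 2 or 3 or HKO replicates 1 or 2 (edgeR adjusted p between 0.0620 and 0.108). Adh6a and Adh6b, the coding genes beside it, had at most 0.0994 and 0.139 CPM.

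Adh1, the main alcohol dehydrogenase of liver and the enzyme that carries most ethanol oxidation, lies at 138277585 to 138290698 in the same cluster. It measured 1445, 1425, 1093 and 1303 CPM in WT livers and 1024, 1198, 959 and 1161 CPM in HKO livers. WT replicate 3 lay among the HKO livers and the other 3 WT livers above all of them. The mean was 1316 ± 162 CPM in WT livers and 1086 ± 113 CPM in HKO livers (SD, n = 4; log2 fold change -0.28, SE 0.113, edgeR adjusted p = 0.200), which did not pass the threshold.

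The other Adh genes were not called. Adh4, which also oxidizes retinol and longer alcohols, had 109 ± 20.4 CPM in WT livers and 128 ± 13.1 CPM in HKO livers (SD, n = 4; log2 fold change 0.24, edgeR adjusted p = 0.331). Adh5, the glutathione-dependent formaldehyde dehydrogenase found in all tissues, had 340 ± 38.8 and 353 ± 14.3 CPM (SD, n = 4; log2 fold change 0.06, edgeR adjusted p = 0.808). Adh7, the retinol-active form of the upper digestive tract, was low, with 7.02 to 9.33 CPM in WT and 7.40 to 15.5 CPM in HKO livers (log2 fold change 0.62, SE 0.221, edgeR adjusted p = 0.145). HKO replicate 4 was the lowest HKO liver for Adh7, and without it the gene passed the threshold (log2 fold change 0.79, edgeR adjusted p = 0.0422).

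No Rdh gene was called. The genotypes did not overlap for 2 of the 11 tested Rdh genes, where 12.6% of all genes did not overlap. Rdh10, which catalyses the rate-limiting oxidation of retinol to retinaldehyde in many tissues, lies on chromosome 1 from 16105882 to 16132551. It measured 42.8, 41.4, 42.7 and 41.3 CPM in WT livers and 37.9, 38.7, 36.1 and 37.3 CPM in HKO livers. The values were tight and did not overlap, with HKO below WT. The difference was small, 42.0 ± 0.822 against 37.5 ± 1.11 CPM (SD, n = 4; log2 fold change -0.16, SE 0.0706, edgeR adjusted p = 0.223).

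Rdh16, a microsomal retinol and hydroxysteroid dehydrogenase, lies on chromosome 10 from 127801153 to 127815840. It measured 266, 261, 189 and 195 CPM in WT livers and 143.5, 144, 46.3 and 149 CPM in HKO livers. All HKO livers were below all WT livers, and HKO replicate 3 was far below the other HKO livers. The mean was 228 ± 41.7 CPM in WT livers and 121 ± 49.7 CPM in HKO livers (SD, n = 4; log2 fold change -0.92, SE 0.371, edgeR adjusted p = 0.237), and without HKO replicate 3 the difference was smaller but passed the threshold (log2 fold change -0.64, edgeR adjusted p = 0.0241). Rdh16 had fractional counts in 7 livers, as arise where a read fits several genes, and which genes share its reads was not tested. The sum of Rdh16, Rdh16f2, Rdh9, Rdh1, Rdh18-ps and Rdh19 was 335 to 475 CPM in WT and 159 to 383 CPM in HKO livers (log2 fold change -0.42, SE 0.265, edgeR adjusted p = 0.446). Rdh7 also had fractional counts in 7 livers and was left out of this sum.

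Members of this Rdh cluster pointed different ways. Rdh16f2 had 42.8 to 61.5 CPM in WT livers and 63.0, 93.7, 29.1 and 108.5 CPM in HKO livers, so that HKO replicate 3 was below every WT liver and the other 3 above all of them (log2 fold change 0.53, SE 0.389, edgeR adjusted p = 0.524). Rdh9 and Rdh1 were at -0.21 and -0.72 on the log2 scale, Rdh18-ps at -0.16, and none was called. Rdh1 was low, with at most 2.44 CPM in any liver.

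Rdh7, at the far end of the cluster and the Rdh gene with the highest level per kilobase, encodes a retinol and androgen dehydrogenase. Its levels were 831, 871, 778 and 948 CPM in WT livers and 818, 888, 930 and 933 CPM in HKO livers, so the genotypes overlapped throughout. The means were 857 ± 71.6 and 892 ± 53.8 CPM (SD, n = 4; log2 fold change 0.06, SE 0.0900, edgeR adjusted p = 0.783), and the sign turned to -0.027 when libraries were scaled to their total counts. Rdh11, a reductase of retinaldehyde, stood at 124 CPM in WT replicate 1, with 28.8 to 41.8 CPM in the remaining WT livers and 23.8 to 36.8 CPM in HKO livers (log2 fold change -0.78, SE 0.526, edgeR adjusted p = 0.482). Without WT replicate 1 its log2 fold change was -0.041. Rdh5, Rdh13 and Rdh14 were at -0.06, 0.02 and -0.16 on the log2 scale, and Rdh12 and Rdh19 were not tested, with at most 0.0697 and 0.154 CPM.

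**Figure D3:**
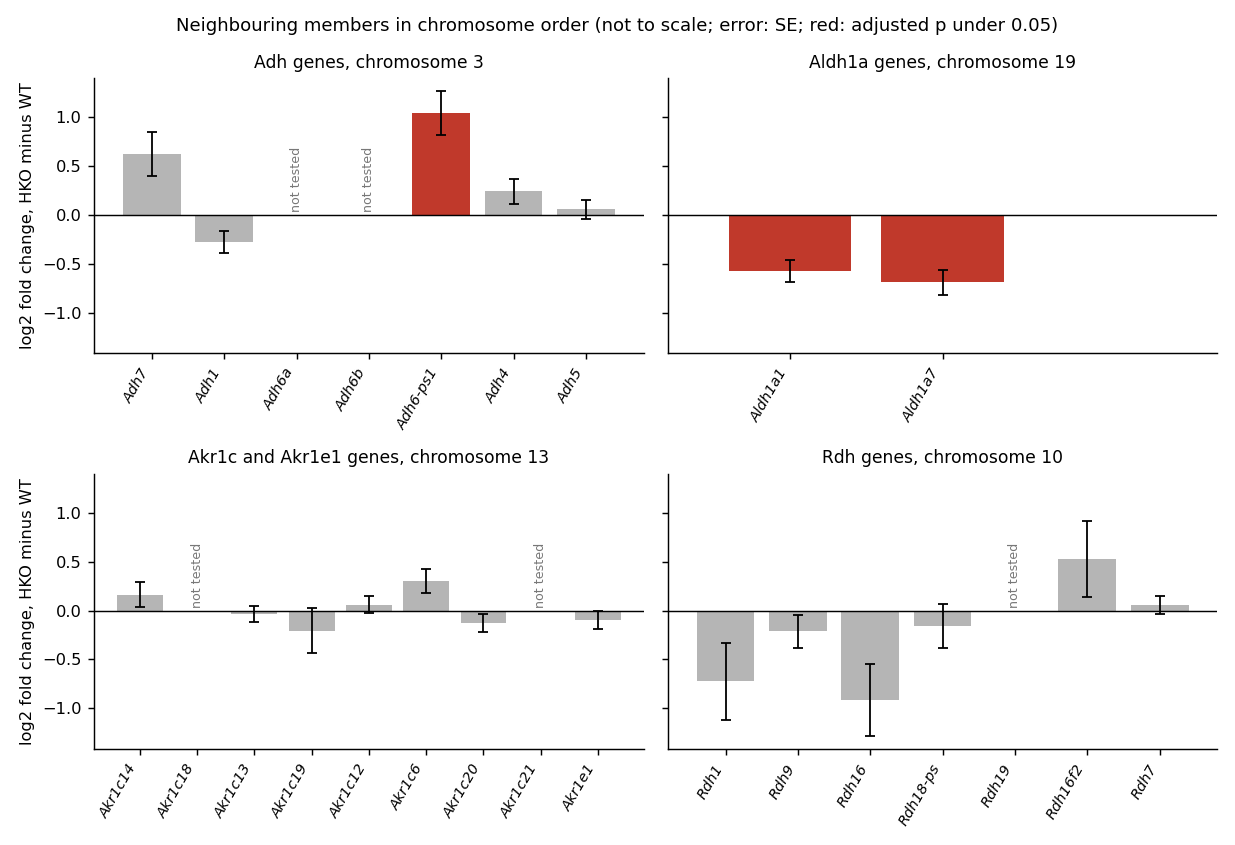
Log2 fold change of HKO minus WT, with the standard error, for members in 4 gene clusters, drawn in chromosome order and not to scale, with red bars for an adjusted p under 0.05. Adh6-ps1 rises while Adh1 in the same cluster is at -0.28, both Aldh1a genes fall, and 0 genes of the Akr1c and Rdh clusters are called.

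Levels were compared between members as CPM per kilobase of exon, since a longer transcript yields more reads. The length used was the union of all annotated exons and so overstates genes with many alternative exons. On this scale, over all 8 livers, Akr1c6 (650), Adh1 (538), Rdh7 (521) and Aldh1a1 (449) led, followed by Aldh2 (257) and Akr1c14 (245). Their order was not fixed across livers. In WT livers Akr1c6 spanned 501 to 712, Adh1 489 to 647, Rdh7 463 to 565 and Aldh1a1 495 to 603 CPM per kilobase, so these 4 neighbours overlapped. In HKO livers Akr1c6 spanned 628 to 803, above Rdh7 at 487 to 556 and Adh1 at 430 to 537, while Aldh1a1, at 318 to 425, lay below all 3. Aldh2, at 245 to 290 in WT and 224 to 256 in HKO livers, overlapped Akr1c14, at 180 to 258 and 229 to 293. Dhrs4 led its family at 62.1 CPM per kilobase, and the 14 untested members were below 2.8 CPM (at most 2.77 CPM) in every liver.

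**Figure D4:**
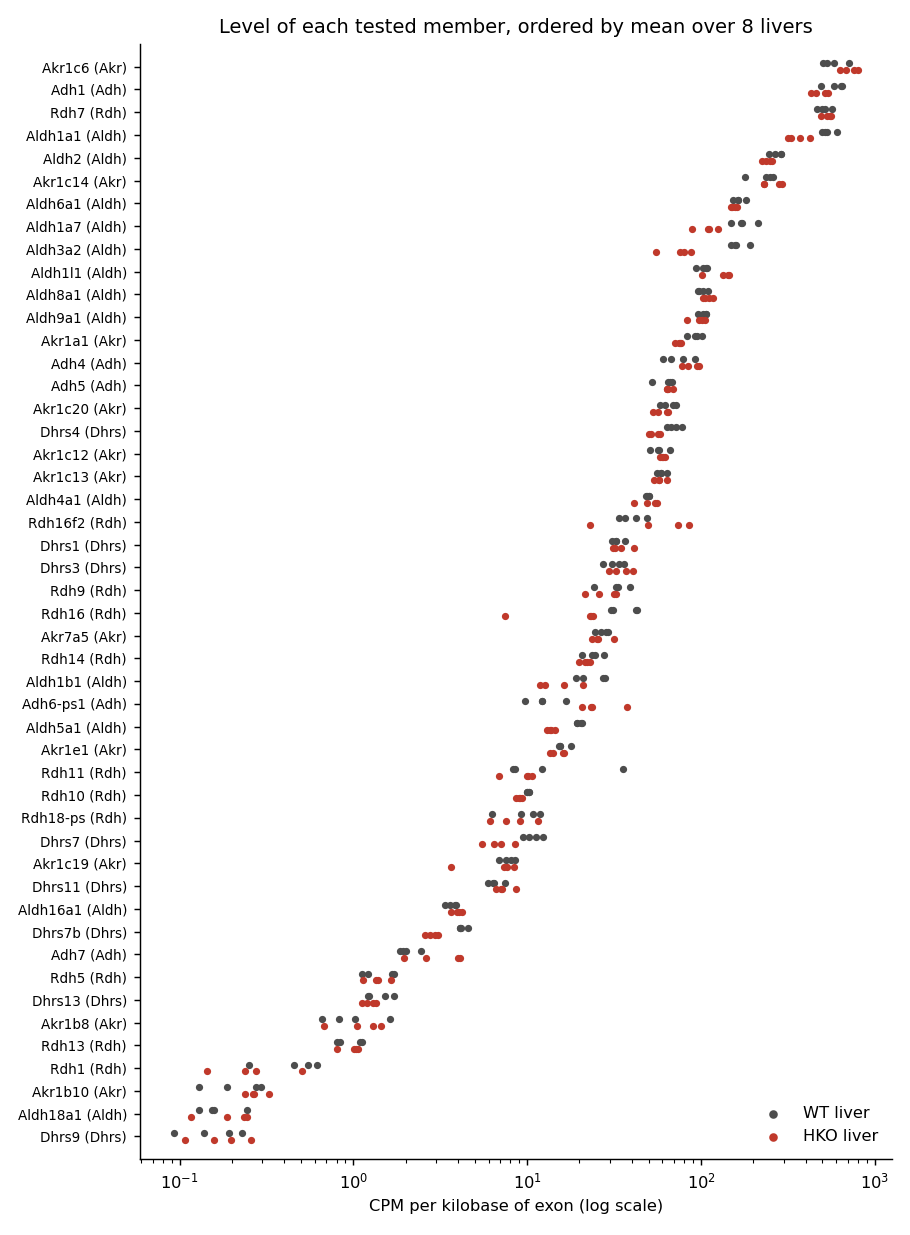
CPM per kilobase of exon on a log axis in each WT (grey) and HKO (red) liver for the 48 tested members, from the highest mean level at the top to the lowest. Akr1c6, Adh1, Rdh7 and Aldh1a1 are at the top and overlap in WT livers, and the HKO livers of Aldh1a1 and Aldh3a2 are displaced to lower values.

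Summed over each family, the Aldh genes differed most between genotypes. The Aldh sum was 7797, 8139, 7523 and 8472 CPM in WT livers and 6551, 6863, 5711 and 6215 CPM in HKO livers, and the genotypes did not overlap. It averaged 7983 ± 412 CPM in WT livers and 6335 ± 493 CPM in HKO livers (SD, n = 4), which is 79.4% of WT. The sum over all 62 members was 14197 ± 813 CPM in WT livers and 12562 ± 538 CPM in HKO livers, and without Aldh1a1 and Aldh3a2 it was 10624 ± 610 and 10363 ± 420 CPM. The Akr sum was higher in HKO on average, 2919 ± 242 against 2623 ± 301 CPM, and the Adh, Rdh and Dhrs sums lower, at 91.5%, 93.0% and 91.5% of WT, and in all 4 of these families livers of the genotypes overlapped. These sums are weighted to the abundant genes and are given as descriptions without a test.

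**Figure D5:**
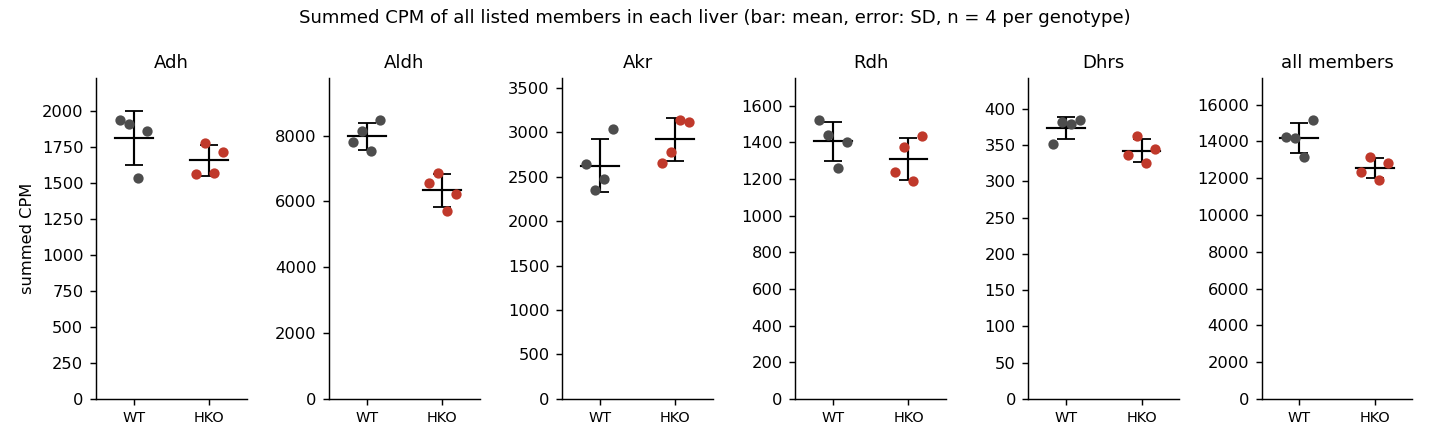
Summed CPM of the listed members of each family, and of all 62 members, in each WT (grey) and HKO (red) liver, with the mean as a horizontal line and the SD as the error bar; each axis starts at 0. The genotypes do not overlap in the Aldh panel (7523 to 8472 CPM in WT, 5711 to 6863 CPM in HKO) and overlap in the Adh, Akr, Rdh and Dhrs panels.

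The genes that work beside these enzymes were read from lists chosen by role, with earlier results of these data known. Of 28 genes of retinoid storage, transport and signalling, 20 were tested and 1 was called, lower, against 5.03% of all genes called in either direction, so the share was that of the background. The median log2 fold change was -0.04. That gene was Retsat, the retinol saturase, which measured 259, 349, 273 and 211 CPM in WT livers and 126, 156, 124 and 170 CPM in HKO livers (log2 fold change -0.92, SE 0.157, edgeR adjusted p = 0.0109). No HKO liver reached the lowest WT liver. Stellate cells store most retinoid of the liver. Their summed markers, 315 to 427 CPM in HKO against 384 to 556 CPM in WT livers, overlapped between genotypes. The mean sum was lower in HKO. Only Col3a1 (71.2 to 19.4 CPM) and Col1a1 (16.6 to 2.33 CPM) were called lower. The other 7 markers were not called, and Reln and Des were higher in HKO on average. Lrat, the retinol esterifying enzyme of stellate cells, had a log2 fold change of -0.18 (edgeR adjusted p = 0.619). The part of these cells in the retinoid results was not tested.

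Of 9 genes listed as partners in ethanol and acetate handling, 8 were tested and 1 was called, against 5.03% of all genes. The median log2 fold change was -0.10. That gene was Bdh1, the mitochondrial hydroxybutyrate dehydrogenase, whose substrate is neither ethanol nor acetate. Bdh1 had 246 to 291 CPM in WT and 139 to 175 CPM in HKO livers (log2 fold change -0.72, SE 0.0919, edgeR adjusted p = 0.00202). The ranges were far apart. DESeq2 called 3 genes of this list and limma-voom 2. Acss3, an acyl-CoA synthetase of mitochondria, and Cyp2e1, the microsomal ethanol oxidase, are named after their values were seen. Acss3 had 135, 161, 137 and 147 CPM in WT livers and 46.3, 70.6, 17.8 and 50.8 CPM in HKO livers, without overlap (log2 fold change -1.64, SE 0.380, edgeR adjusted p = 0.0614). Its adjusted p was 0.000864 in DESeq2 and 0.0122 in limma-voom. Cyp2e1 had 9650 to 10756 CPM in WT and 12028 to 14238 CPM in HKO livers (log2 fold change 0.34, SE 0.107, edgeR adjusted p = 0.100, DESeq2 adjusted p = 0.00114).

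Of 27 other carbonyl and steroid reductases and dehydrogenases, 25 were tested and 7 called, 2 higher and 5 lower, with a median log2 fold change of -0.09. Over all genes 5.03% were called, 1.66% higher and 3.37% lower. The 5 lower genes were Hsd17b4, the peroxisomal bifunctional protein (log2 fold change -0.56), Hsd17b12, of fatty acid elongation (-0.63), Hsd17b13, a lipid droplet protein (-0.77), and the mitochondrial and peroxisomal dienoyl-CoA reductases Decr1 (-0.55) and Decr2 (-0.51), with edgeR adjusted p between 0.00357 and 0.00933. The 2 higher genes were Srd5a1, a steroid reductase (0.72, edgeR adjusted p = 0.00209), and Hsd3b3, a hydroxysteroid dehydrogenase (0.56, edgeR adjusted p = 0.0173). In all 7 genes the genotypes were without overlap.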

How the data were processed

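RNA was isolated from whole liver of 4 WT and 4 HKO mice after 3 months of CD-HFD. The labels name both ribosomal RNA removal and a small RNA library kit with single-end reads, and the kit's strand setting is not given in the sources used here. The authors aligned reads with STAR and quantified genes in Partek by expectation-maximization, and the deposited values are estimated counts per gene, of which 80.5% were whole; a read that fits several genes is split, so counts of near-identical members are uncertain. The genome build was not given in the sources used here. Of the symbols found in RefSeq for GRCm38, 84.5% shared a start or end with the deposited coordinates, and this build was used.

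Estimated counts were rounded to whole numbers. Genes were kept with filterByExpr (minimum count 10), and WT and HKO were compared with TMM scaling and the robust quasi-likelihood test of edgeR 4.0.16 (R 4.3.3), with Benjamini-Hochberg adjustment over 12395 genes. Covariates of the study's own comparison are not given in the sources used here. DESeq2 1.42.0, limma-voom 3.58.1, other scalings and filters, a replicate block and leaving out each liver were alternatives. Log2 CPM used a prior count of 2. The scripts were tested on simulated data. Lengths and 3′ untranslated regions came from GENCODE M21, and promoters and miR-33 from RefSeq. The titles and column names of the 8 livers carry different animal numbers, but the descriptions of the 4 WT livers begin with the same number, so that they come from separate animals rests on the titles. No pair of livers of the same genotype held the same counts within sampling noise, and pairs across genotypes were not checked. Values in each liver were given for called members, tested members without overlap and the member of each family with the highest level per kilobase. The members and gene lists were chosen with earlier results of these data known.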

Additional observations from a re-analysis of the deposited data

Results flagged for a closer look

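In 5 of 96 groups of 4 livers, a tested member had 1 liver whose distance to the nearest of the others, as a share of the whole range, was above Dixon's critical value for 4 samples. Chance gives about 1 in 20 groups, or 4.8 here. Rdh16 in HKO livers had a share of 0.947, with 46.3 CPM in HKO replicate 3 and 143.5 to 149 CPM in the others. Akr1e1 in WT livers had 0.901, with 64.9 CPM in WT replicate 4 and 55.4 to 56.3 CPM in the others. Rdh11 in WT livers had 0.863, with 124 CPM in WT replicate 1 and 28.8 to 41.8 CPM in the others. Dhrs7b in WT livers had 0.858, with 15.3 CPM in WT replicate 2 and 13.6 to 13.9 CPM in the others. Adh5 in HKO livers had 0.844, with 374 CPM in HKO replicate 2 and 343 to 348 CPM in the others.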

How the results depend on the processing

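Limma-voom and 3 other scalings (RLE, total count, upper quartile) also called the 9 called members. They were called too with at least 10 counts required in every liver and with the older quasi-likelihood method of edgeR. That older method was chosen after seeing the data. So were the sums of Aldh1a1 with Aldh1a7, of Akr1c12 with Akr1c13 and of Rdh16 with its neighbours. DESeq2 called 11, the same 9 with Aldh1b1 and Aldh1l1, and 1014 of all genes against 624. In 1 simulated data set, with 200 genes changed by at least 1 on the log2 scale, 15.1% of the calls of DESeq2 were false. For edgeR this share was 7.73%. Changes as small as those of Aldh1b1 and Aldh1l1 were not simulated, so these shares cannot tell whether those calls are false. Requiring a fold change above 1.5 left 4 members and 367 genes, and without the filter on low counts 7 members were called. Leaving out 1 liver at a time gave 3 to 10 members and 212 to 598 genes, lowest without WT replicate 2 (3 members, 212 genes), with 272 genes without WT replicate 1 and 364 without HKO replicate 4. Aldh3a2, Aldh5a1 and Aldh1a7 kept their calls in each of these 8 fits. The direction of Rdh7 turned with total count scaling (log2 fold change -0.027), and the other members with values in every liver, with Adh7, Aldh1b1 and Aldh1l1, kept theirs in every alternative. Over all 48 tested members, 12 turned in at least 1 alternative, 10 of them on leaving out a liver. Each was at 0.21 or less in size on the log2 scale and had an edgeR adjusted p of 0.692 or more, so no direction is read for them. Same-numbered WT and HKO livers did not deviate together (correlations -0.06, 0.01, -0.08 and -0.15). Livers of different number gave -0.21 to 0.24. This check did not show pairing and cannot exclude it, and the main fit did not pair livers. With the replicate number as a block, 7 members and 456 genes were called, Adh6-ps1 and Akr1a1 falling out (edgeR adjusted p = 0.0681 and 0.115). With 4 livers a genotype, small changes may be missed, and the 14 members under the filter give no test at this depth.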
